A study of Homo sapiens with 8 samples.

Results

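A498 is an established human kidney carcinoma line, and its 2 arrays are described here against the 6 arrays of the other 3 lines of the series, ACHN, CAKI2 and CAKI1. The 2 arrays of 8 in all were picked out by the cell line label, with earlier results of these data known. Each line gave 1 array from cells kept for 24 h in the solvent DMSO and 1 array from cells kept for 24 h in 75 nM A939572, an inhibitor of the fatty acid desaturase SCD. The submitters describe all 4 as clear cell renal carcinoma lines bought from one repository and grown in the same medium. The labels state no separate cultures, clones or passages within a line, so p-values speak of these cultures rather than of tumours. They measure only the spread between these arrays, which may be technical. No line has 2 arrays of 1 treatment, so this spread includes any drug response that differs between lines. The question taken up is which genes set A498 apart in both treatments, not what the drug did.

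Clear cell carcinoma arises from kidney tubule epithelium. In most such tumours the VHL protein is lost, which leaves the hypoxia-inducible factors (HIFs) stable, and A498 is widely used as a line without functional VHL protein. Interferon response genes are switched on when interferon receptors or sensors of foreign nucleic acid are engaged: the transcription factor complex that holds IRF9 binds a short element with repeated GAAA in their promoters. Epithelial cells hold together through claudins, desmosomes and keratins, while a collagen-rich matrix is made largely by fibroblasts and other mesenchymal cells.

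Levels are log2(signal + 16) after quantile normalization, with 1 probe set per gene, the brightest. A signal of 0 gives 4 on this scale before normalization, and values below 6.50, the median of all probe sets, are near the dim end, where fold changes are understated. A gene was called when A498 differed in the same direction from each of the other 3 lines (limma, treatment as a block, Benjamini-Hochberg adjustment of the largest of the 3 p-values over 13763 genes, adjusted p under 0.05). Differences are A498 minus the mean of the 3 other lines, with the standard error (SE) of the fit. This SE comes from the spread left within lines and leaves out the spread between the 3 other lines. The standard deviation of the 3 other line means was 2.83 in C1S, with an SE of 0.25. In POSTN it was 0.11, with an SE of 0.42. The median SE over all genes was 0.21. A difference in bulk RNA does not tell more RNA per cell from more cells of a kind.

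A498 differed from each other line in 557 genes, 4.05% of those tested, of which 235 (1.71%) were higher and 322 (2.34%) were lower. The filter needs 2 arrays at or above 6.50, so 29 of the higher genes, with all 6 other arrays below it, were tested only because A498 was high. They include XAF1, ZFP42, POSTN, NEFM, AADAC, SORCS2, LOC105379362, CCL26 and OAS2, which also passed without the filter. A higher gene with 1 other array above that level, such as IL13RA2, also entered the test only through A498. Of the higher genes 114 differed at least 4-fold, as did 163 of the lower ones. Since a gap between the treatments that differs between lines counts as error in this fit, called genes had to repeat on both A498 arrays. Of the 557, 522 lay outside the range of the 6 other arrays in both treatments. With arrays centred on their medians and not quantile normalized, 184 genes were higher and 393 lower. Where A498 was instead tested against the other lines as 1 group with treatment as a block, 113 genes were higher and 168 lower. That fit takes the 6 arrays as independent. With the cell line as a random block (estimated correlation 0.713), 12 were higher and 41 lower. With 1 mean per line, which leaves A498 as a single sample against 3, no gene passed in limma. The calls therefore say that these A498 arrays differ from each other line by more than the spread left within lines. That spread is what remains after the treatment gap shared by the lines is taken out. The calls do not say that A498 lies beyond the spread of kidney carcinoma lines.

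A difference between the treatments in the distance of A498 from the other lines was tested over all genes. No gene was called for a difference between the treatments in that distance (limma, the single A498 gap against those of the 3 other lines). With ACHN left out, 1 gene was called, FBN2, a fibrillin of elastic microfibrils. Rank correlations across the 13763 genes, which are not independent replicates, were 0.958 between the A498 arrays and 0.846 to 0.887 between an A498 array and an array of another line. Tested the same way, ACHN gave 345 calls (2.51%), CAKI1 371 (2.70%) and CAKI2 851 (6.18%), so A498 lay between them.

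**Figure D1:**
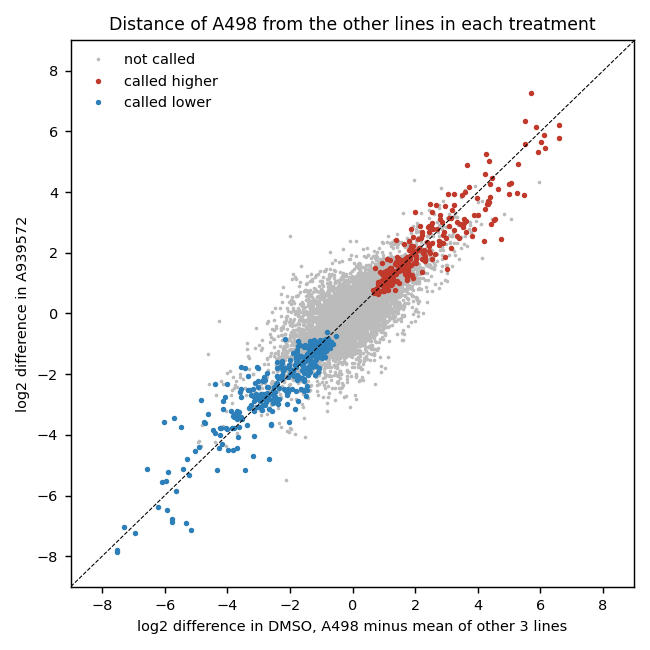
Difference between A498 and the mean of the other 3 lines for each of 13763 genes (log2), in DMSO on the horizontal and in A939572 on the vertical axis. Red and blue points are the 235 genes called higher and the 322 called lower, grey points are the rest, and the dashed line marks equal values. Called genes had to repeat on both A498 arrays, so their lying along the line follows from the call.

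Quality measures differed with treatment and, to a smaller degree, with line. The ratio of 3′ to 5′ ACTB probe signals, a sign of RNA integrity, was 2.12 to 2.33 on the DMSO arrays and 3.02 to 4.22 on the A939572 arrays. A498 had 2.33, the highest value in DMSO, and 3.13. The GAPDH ratio was 0.96 to 1.11 on all arrays, and the A498 values of 1.05 in DMSO and 1.11 in A939572 were the highest in each treatment. The A498 median signal was also the highest in each treatment, 84.2 in DMSO and 76.3 in A939572, against 68.6 to 77.6 elsewhere, before normalization. Their part in the results was not tested. None of 11 reference genes and none of 16 ribosomal protein genes was called, against 4.05% of all genes.

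The largest group of related genes on the higher side belonged to the interferon response. Of 32 tested genes of that list, 12 were higher (37.5%, against 1.71% of all genes) and none was lower. Of these 12, XAF1 and OAS2 were tested only because A498 was high. The list median was 1.36 against -0.01 for all genes. Over the whole list, the called genes included, 31 of 32 differences were above 0. In it 19 genes lay above all 6 other arrays in both treatments, as did 8.41% of all genes. None lay below all 6, against 9.52% of all genes. The list median was 1.65 against ACHN, 1.20 against CAKI2 and 1.50 against CAKI1. The same test called none of these genes higher in ACHN, CAKI2 or CAKI1, where 1.13%, 2.96% and 1.37% of all genes were higher. It called 2, 4 and 0 of them lower, where 1.38%, 3.22% and 1.32% of all genes were lower. Taken as 1 group against A498 with treatment as a block, 8 of the 32 were higher, and with the cell line as a random block 2 were.

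Promoters of 3 of the called genes are shown because they hold the element of this response, written GAAANNGAAA or its reverse complement TTTCNNTTTC. The sequences are the 250 bases before the gene start in RefSeq on GRCh38.p14, written 5′ to 3′ on the gene's strand, with matches in capitals: IFI44L at chr1:78620198-78620447 on the plus strand, IFI27 at chr14:94110486-94110735 on the plus strand and IFI6 at chr1:27672193-27672442 on the minus strand.
IFI44L: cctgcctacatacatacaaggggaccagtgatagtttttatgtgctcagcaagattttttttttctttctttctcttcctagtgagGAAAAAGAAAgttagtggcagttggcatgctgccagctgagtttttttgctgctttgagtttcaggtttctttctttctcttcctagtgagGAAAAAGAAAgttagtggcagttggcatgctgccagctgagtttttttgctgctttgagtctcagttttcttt
IFI27: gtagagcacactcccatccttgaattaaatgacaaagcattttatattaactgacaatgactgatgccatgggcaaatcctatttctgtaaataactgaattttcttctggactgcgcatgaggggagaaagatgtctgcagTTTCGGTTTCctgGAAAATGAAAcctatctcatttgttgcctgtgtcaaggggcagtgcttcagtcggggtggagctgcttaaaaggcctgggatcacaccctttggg
IFI6: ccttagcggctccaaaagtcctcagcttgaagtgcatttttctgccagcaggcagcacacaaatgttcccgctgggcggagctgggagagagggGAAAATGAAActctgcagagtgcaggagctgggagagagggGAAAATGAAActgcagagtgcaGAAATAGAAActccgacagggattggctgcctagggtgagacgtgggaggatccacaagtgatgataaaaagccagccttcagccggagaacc

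IFI44L holds 2 matches, both within a repeated stretch, IFI27 holds 2 on opposite strands that point away from each other, and IFI6 holds 3. Among called interferon genes, 6 of the 10 with a promoter in the table had a match (60%), and among tested interferon genes that were not called, 11 of 16 did (68.8%). The element was thus not more frequent among the called than among the uncalled members. It was found in 2.74% of the promoters of tested genes, in 8.51% of those of called higher genes and in 0.749% of those of called lower genes, within 300 bases from 250 before to 50 after the start. A match is a description of letters and not of a bound site.

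The 3 genes with these promoters had high levels on both A498 arrays. IFI44L, an interferon-induced gene used as a marker of the response, was at 12.37 in DMSO and 12.25 in A939572 in A498. Its other values were 9.10 and 7.20 in ACHN, 6.61 and 6.42 in CAKI2, and 8.32 and 8.04 in CAKI1, in the same order of treatments. The groups did not overlap, and the difference was 4.69 ± 0.32 (SE; limma adjusted p = 0.000316). IFI27, an interferon-induced mitochondrial membrane protein, was at 11.71 and 11.65 in A498, 4.45 and 4.81 in ACHN, 9.87 and 9.74 in CAKI2, and 7.62 and 7.61 in CAKI1, so that the 4 lines formed 4 separate levels with A498 on top (difference 4.33 ± 0.19, limma adjusted p = 0.00175). IFI6, which encodes a related membrane protein, was at 12.02 and 11.83 in A498 and between 7.82 and 9.33 in the other lines (difference 3.30 ± 0.19, limma adjusted p = 0.000191).

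The antiviral effectors followed. XAF1, an interferon-induced partner of the XIAP apoptosis inhibitor, had a difference of 6.49 ± 0.42 (limma adjusted p = 0.000164), the largest of the higher genes with the offset of 16. It was at 11.70 and 12.96 in A498, 5.87 and 4.53 in ACHN, 5.75 and 6.22 in CAKI2, and 6.36 and 6.33 in CAKI1, dim on all 6 other arrays, so that the offset sets the size and the rank. It ranged from 5.00 to 7.04 over the alternatives of the same test, in which ZFP42 reached 7.64. MX1, a GTPase that blocks viral ribonucleoproteins, was at 11.97 and 12.39 in A498, 8.35 and 8.52 in ACHN, 5.20 and 6.76 in CAKI2, and 4.63 and 5.94 in CAKI1 (difference 5.62 ± 0.29, limma adjusted p = 0.000328). ACHN stood above CAKI2 and CAKI1 in this gene, and A498 above all.

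Of the oligoadenylate synthetases, which activate RNase L on sensing double-stranded RNA, OAS2 differed by 3.49 ± 0.33 and OAS3 by 2.32 ± 0.23. IFITM1, a membrane protein that limits virus entry, was at 10.08 and 9.55 in A498 and between 6.32 and 6.87 elsewhere. SAMD9L differed by 2.63 ± 0.20 and IFI35 by 1.24 ± 0.17. The regulators IRF9, the DNA-binding part of the interferon-activated complex, and IRF7, the main inducer of type I interferon genes, differed by 1.51 ± 0.20 and 1.45 ± 0.22. All of these passed (limma adjusted p between 0.000466 in IFITM1 and 0.0250 in IFI35). The calls of OAS3 and SAMD9L were lost when the probe sets of a gene were averaged.

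Other members of the same response did not separate A498 from every line. BST2, which tethers budding virions, was at 10.63 and 9.97 in A498, 4.39 and 5.17 in ACHN, 6.95 and 6.67 in CAKI2, and 9.33 and 9.34 in CAKI1, with A498 above all 6 arrays but close to CAKI1 (limma adjusted p = 0.230). RSAD2, the antiviral enzyme viperin, was at 9.24 and 10.91 in A498 and reached 11.28 in CAKI2 in A939572, so the groups overlapped (limma adjusted p = 1). IFI44 had 11.87 and 11.61 in A498 against 7.35 to 10.85 elsewhere and missed the threshold (difference 2.92 ± 0.34, limma adjusted p = 0.0788).

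**Figure D2:**
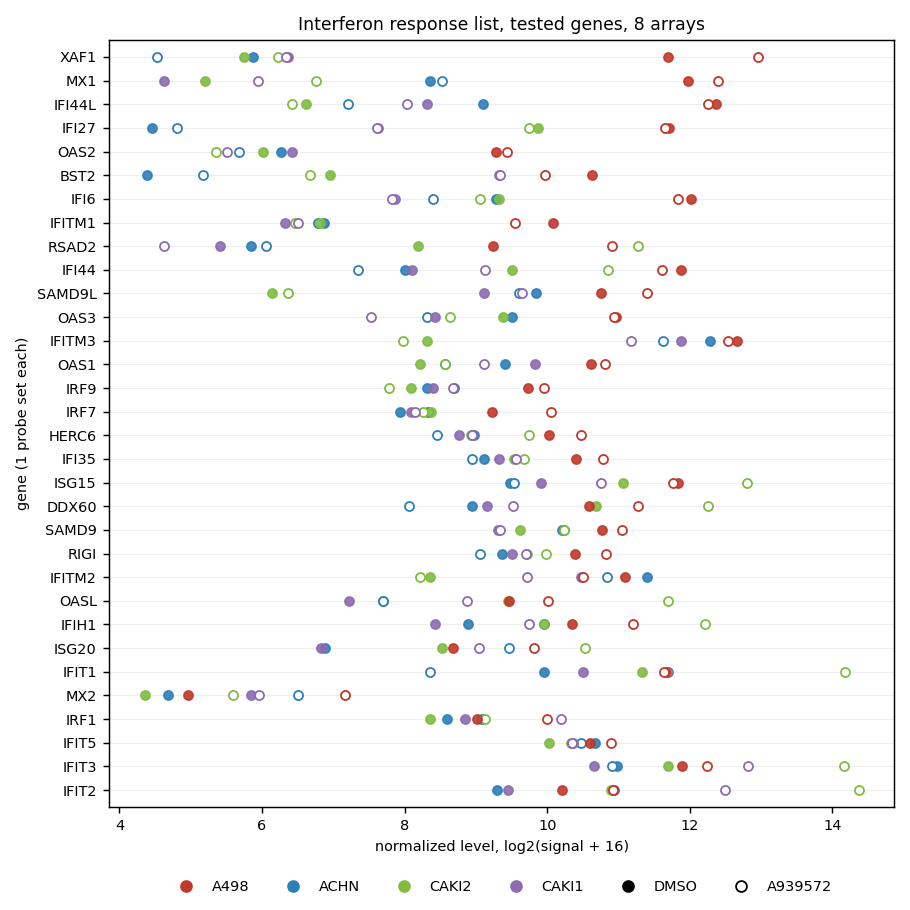
Levels of the 32 tested interferon response genes (log2(signal + 16), normalized) on each of the 8 arrays, ordered by the difference between A498 and the other lines. Filled points are DMSO and open points A939572, coloured by line. The A498 points lie to the right of all others in 19 genes, and in the lowest rows such as IFIT2 and IFIT3 the CAKI2 array in A939572 lies furthest to the right.

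Class I antigen presentation, which shows peptides to cytotoxic T cells and is an interferon target, had 3 of 17 tested genes higher (17.6%, against 1.71% of all genes) and none lower, with a median of 0.50. With the cell line as a random block none was called. HLA-B was at 14.11 and 14.38 in A498 and between 12.71 and 13.41 in the other lines (difference 1.18 ± 0.12, limma adjusted p = 0.00685). HLA-F differed by 1.16 ± 0.14 and HLA-C by 0.89 ± 0.11, both about 2-fold. The call of HLA-C was lost with median centring and that of HLA-F when its probe sets were averaged. Probe sets of these near-identical paralogs can take up each other's RNA, so the values are uncertain. B2M, the common light chain, was at 15.60 and 15.58 against 14.87 to 15.18 and was not called (limma adjusted p = 0.0849). None of 9 class II genes was called, against 4.05% of all genes.

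Secreted immune mediators were mixed. CCL2, which attracts monocytes, was at 11.68 and 11.80 in A498, 8.03 and 6.84 in ACHN, 4.44 and 6.72 in CAKI2, and 4.25 and 4.24 in CAKI1 (difference 5.99 ± 0.52, limma adjusted p = 0.00478). CCL26, an eosinophil attractant, was at 10.39 and 9.25 in A498 and between 4.25 and 6.18 elsewhere (difference 4.62 ± 0.49). IL18 was lower, at 9.65 and 9.25 against 10.55 to 11.13 (difference -1.34 ± 0.16). These 3 were the called genes of 26 tested cytokines and chemokines, 7.69% higher and 3.85% lower against 1.71% and 2.34% of all genes. CCL26 was tested only because A498 was high. None of the 3 was called with the cell line as a random block. ACKR3, a scavenging receptor of the chemokine CXCL12, was at 11.17 and 11.31 in A498, near 7 in CAKI2 with 7.20 and 6.78, and between 4.18 and 4.54 in ACHN and CAKI1 (difference 6.01 ± 0.31, limma adjusted p = 0.000211). Averaging its probe sets gave an adjusted p of 0.0718. IL13RA2, a decoy receptor for interleukin 13, was at 10.79 and 10.85 in A498 and at 7.33 at most elsewhere (difference 5.83 ± 0.67, limma adjusted p = 0.00819). Its call was lost with an offset of 1 and without the variance trend.

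Of 13 complement genes 2 were higher (15.4%) and of 17 coagulation and plasminogen genes 1 was (5.88%), against 1.71% of all genes, and none was lower. None of the 3 was called with the other lines as 1 group or with the cell line as a random block, and the calls of C1S and F3 were also lost with an offset of 1 and without the filter, as was that of CFI without the filter. C1S, a protease of the first complement component, was at 12.66 and 12.34 in A498 and at 11.16 in DMSO in CAKI1 and little below that in A939572, with 5.57 to 6.80 in ACHN and CAKI2, so that CAKI1 was the line nearest to it (difference 4.67 ± 0.25, limma adjusted p = 0.0281). CFI, the protease that inactivates C3b and C4b, differed by 4.03 ± 0.28. F3, tissue factor, was at 9.03 and 10.06 in A498 and between 6.09 and 8.47 elsewhere (difference 2.71 ± 0.33, limma adjusted p = 0.0313).

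Matrix genes differed in both directions. Of 29 tested collagens, laminins and basement membrane genes, 4 were higher (13.8%, against 1.71% of all genes) and 1 was lower, with a median of 0.24. With the other lines as 1 group 1 was higher and 1 lower, and with the cell line as a random block 1 was higher and none lower. COL5A1, a chain of a fibril collagen, was at 11.16 and 11.08 in A498, 4.76 and 5.46 in ACHN, 5.98 and 6.31 in CAKI2, and 6.88 and 6.70 in CAKI1, with a wide gap between the groups (difference 5.11 ± 0.27, limma adjusted p = 8.54e-05). COL13A1, a transmembrane collagen, differed by 2.94 ± 0.33, COL27A1, a fibril collagen of cartilage, by 2.12 ± 0.23, and COL4A2, of basement membranes, by 1.28 ± 0.16. All of these except COL5A1 lost their calls when probe sets were averaged, and COL4A2 also with median centring. NID2, which links laminin to collagen IV, was lower, at 4.55 and 4.56 in A498 against 7.51 to 8.63 (difference -3.51 ± 0.32, limma adjusted p = 0.00131).

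The mesenchymal list was split as well, with 2 of 29 higher and 2 lower (6.90% each, against 1.71% and 2.34% of all genes). Its median was -0.03. Of the higher genes, POSTN was tested only because A498 was high. With the cell line as a random block 1 was higher and 1 lower. POSTN, periostin, a matrix protein of fibroblasts and osteoblasts, was at 11.25 and 10.82 in A498 and between 4.35 and 5.58 on the 6 other arrays (difference 6.19 ± 0.42, limma adjusted p = 0.000147). SPARC, a collagen-binding glycoprotein, was at 14.33 and 13.69 in A498 and at 13.70 and 12.68 in CAKI1, with lower values elsewhere. The groups overlapped by the A939572 array of A498, and the call (difference 1.95 ± 0.14, limma adjusted p = 0.0285) was lost with median centring. S100A4, a calcium-binding protein tied to cell motility, was lower by 2.46 on the log2 scale, and FN1, fibronectin, was at 14.34 and 14.44 against 15.49 to 15.67 (difference -1.18 ± 0.09, limma adjusted p = 0.000324). VIM, the intermediate filament of mesenchymal cells, had 15.25 and 15.23 in A498 and 15.08 to 15.26 elsewhere, and CDH2, N-cadherin, also overlapped (limma adjusted p = 1 in both).

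POSTN and FBLN1 (difference 2.57 ± 0.22), which stabilizes matrix fibres, are also the called genes of the fibroblast markers, of which 5 of 10 were bright enough to be tested. That is 40% of the 5 tested, against 1.71% of all genes, but POSTN was tested only because A498 was high, so the share is no support. The summed signal of the 10 markers was 3526 to 5245 in A498 and 525 to 4258 on the other arrays, and 6 of the 10 were below 6.50 on both A498 arrays. Endothelial markers summed to 270 to 355 in A498 and 352 to 647 elsewhere, and leukocyte markers to 536 to 578 and 403 to 578. FBLN1 lost its call when probe sets were averaged. The part of other cells in the result was not tested.

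Of 36 tested epithelial adhesion genes and keratins, 0 were called higher and 4 lower (11.1%, against 2.34% of all genes). Of the differences 14 were above 0. In both treatments 2 genes lay above all 6 other arrays and 6 below, as did 8.41% and 9.52% of all genes. KRT15, a keratin, lay above, at 9.62 and 9.93 against 4.65 to 8.93, and was not called. The list median was -0.37, and it was -0.41 against ACHN, -0.08 against CAKI2 and 0.09 against CAKI1. With the cell line as a random block 2 were lower. MAL2, which carries cargo to the apical membrane, was at 8.37 and 6.36 in A498 and between 12.96 and 13.85 in all other lines (difference -6.11 ± 0.28, limma adjusted p = 1.12e-05). CLDN11, a tight junction protein, was at 4.85 and 5.71 in A498, 10.96 and 8.84 in ACHN, 9.86 and 7.42 in CAKI2, and 11.77 and 11.59 in CAKI1 (difference -4.79 ± 0.53, limma adjusted p = 0.0187). KRT19, a keratin of simple epithelia, was at 8.47 and 7.40 against 9.64 to 13.66 (difference -4.25 ± 0.30), and DSC2, a desmosomal cadherin, at 7.50 and 7.64 against 9.96 to 11.19 (difference -2.93 ± 0.18, limma adjusted p = 0.000211). The calls of CLDN11 and KRT19 were lost when the probe sets of a gene were averaged. EPCAM, the epithelial cell adhesion molecule, set ACHN apart instead, at 12.79 and 12.19, while A498 with 6.71 and 7.50 overlapped CAKI2 and CAKI1.

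Calls among kidney lineage genes were counted over short lists. None of 18 renal lineage transcription factors and none of 22 proximal tubule markers was called, against 4.05% of all genes. At that share, lists this short can hold no call. PAX8, a factor of the kidney epithelium, was at 12.14 and 12.52 in A498 and between 11.97 and 13.02 in the other lines. Of 10 tested markers of the loop, distal tubule and collecting duct 1 was lower (10%, against 2.34% of all genes). It was CLDN16, the paracellular magnesium pore of the thick ascending limb, at 4.79 and 4.66 against 6.17 to 11.63 (difference -3.91 ± 0.26, limma adjusted p = 0.0157). FXYD2, the gamma subunit of the sodium pump and enriched in the distal nephron, was at 6.29 and 5.89 in A498 against 10.75 to 12.56 (difference -5.56 ± 0.20, limma adjusted p = 2.72e-06). Its only other probe set in use, with a mean level of 6.25, gave -1.69 and an adjusted p of 1. Of 16 markers of injured or progenitor tubule cells, CD44, a hyaluronan receptor, was higher (difference 1.06 ± 0.12, limma adjusted p = 0.0437) and KRT19 and SOX4 were lower. That is 6.25% higher and 12.5% lower, against 1.71% and 2.34% of all genes. The call of CD44 was lost under 7 of the 12 alternatives that kept the same test, and its other probe sets ranged from -0.37 to 0.99. SOX4 lost its call with probe sets averaged and without the variance trend, and its other probe sets ranged from -2 to 0.26. The A498 array in DMSO, at 11.20 for SOX4, lay within the range of the other lines.

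**Figure D3:**
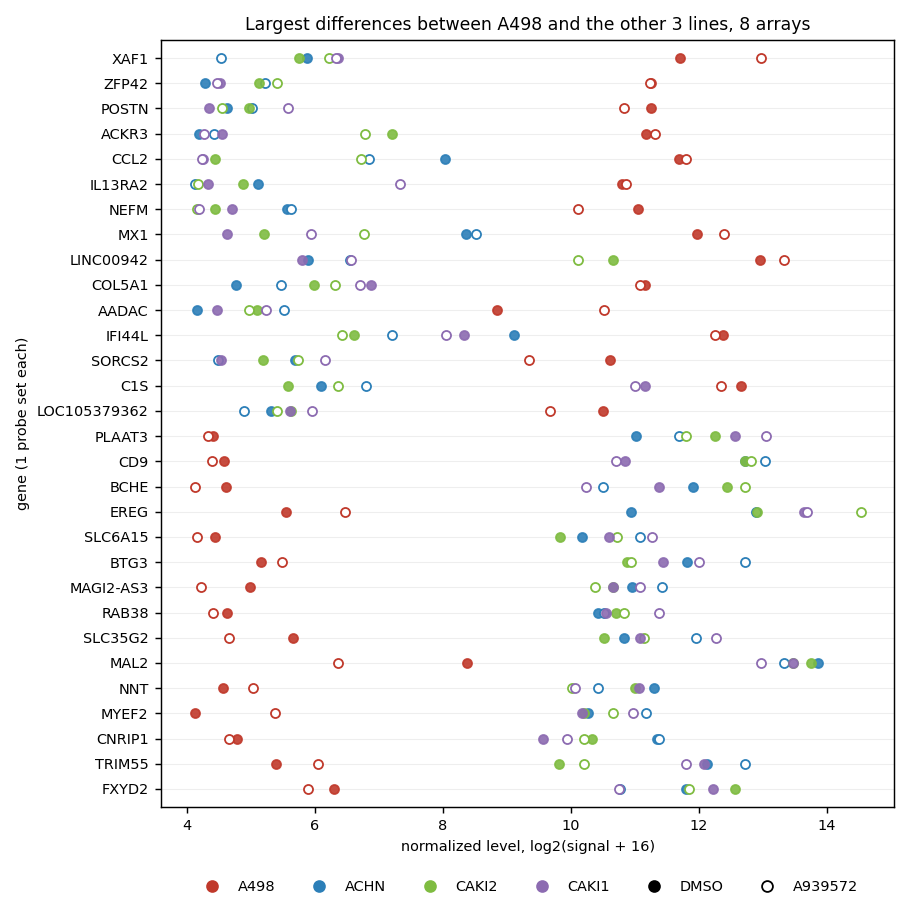
Levels (log2(signal + 16), normalized) on each of the 8 arrays for the 15 genes with the largest higher and the 15 with the largest lower difference in A498. Filled points are DMSO and open points A939572, coloured by line. In all 30 genes both A498 points lie outside the range of the other 6, as the choice of genes required. In most lower genes they lie below 6.50.

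The largest lower differences were in genes that were bright in all other lines and dim in A498. PLAAT3, a phospholipase A, was at 4.41 and 4.32 in A498, 11.02 and 11.69 in ACHN, 12.25 and 11.80 in CAKI2, and 12.56 and 13.04 in CAKI1 (difference -7.70 ± 0.22, limma adjusted p = 1.39e-06). CD9, a tetraspanin of the cell surface and of extracellular vesicles, was at 4.58 and 4.39 in A498, 12.72 and 13.03 in ACHN, 12.71 and 12.81 in CAKI2, and 10.84 and 10.70 in CAKI1 (difference -7.65 ± 0.16, limma adjusted p = 4.1e-07). Averaging its probe sets gave -2.52, and an offset of 1 gave -9.26. Both genes lay near the lowest value the scale allows in A498. Of all 322 lower genes, 107 had both A498 arrays below 6.50.

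BCHE, butyrylcholinesterase, was at 4.61 and 4.12 in A498 against 10.24 to 12.72 (difference -7.17 ± 0.28), and SLC6A15, a neutral amino acid transporter, at 4.43 and 4.16 against 9.83 to 11.26 (difference -6.31 ± 0.24). NNT, the mitochondrial transhydrogenase that makes NADPH from NADH, was at 4.56 and 5.03 in A498, 11.29 and 10.42 in ACHN, 11.06 and 10.06 in CAKI1, and no lower than 10.01 in CAKI2 (difference -5.85 ± 0.28, limma adjusted p = 1.24e-05). NNT-AS1, the transcript annotated on the opposite strand beside it, was also lower (difference -3.58 ± 0.24, limma adjusted p = 0.000397) and was named after its values were seen. RAB38, a GTPase of lysosome-related organelles, differed by -6.20 ± 0.21, and the antisense transcript MAGI2-AS3 by -6.26 ± 0.25. MYEF2, a transcriptional repressor, had -5.83 ± 0.19, CNRIP1, which binds the cannabinoid receptor, -5.73 ± 0.18, and TRIM55, a muscle ubiquitin ligase, -5.73 ± 0.20. BTG3, an antiproliferative gene, and SLC35G2 had -6.30 ± 0.19 and -6.14 ± 0.36, but -0.96 and -1.35 with an adjusted p of 1 when probe sets that can match several transcripts were left out.

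On the higher side, ZFP42, a zinc finger protein known from pluripotent cells, was at 11.24 and 11.23 in A498 and between 4.28 and 5.40 on all other arrays (difference 6.40 ± 0.36, limma adjusted p = 5.97e-05). NEFM, the medium neurofilament of nerve cells, was at 11.05 and 10.11 against 4.15 to 5.62 (difference 5.81 ± 0.38, limma adjusted p = 0.000271). It was 1 of 8 tested neuronal markers, of which SYT1, a calcium sensor of synaptic vesicles, was lower by 2.81 on the log2 scale. Each is 12.5% of the tested markers, against 1.71% of all genes higher and 2.34% lower, but NEFM was tested only because A498 was high. The summed neuronal marker signal of A498, 14181 to 23336, lay within the 5468 to 50223 of the other arrays. AADAC, a liver esterase, differed by 4.77 ± 0.45, SORCS2, a sorting receptor of neurons, by 4.68 ± 0.55, LINC00942 by 5.54 ± 0.25 and LOC105379362 by 4.63 ± 0.34.

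The called growth factors and receptors were mostly lower. EREG, epiregulin, a ligand of the epidermal growth factor receptor, was at 5.55 and 6.47 in A498, 10.94 and 12.89 in ACHN, 12.91 and 14.53 in CAKI2, and 13.64 and 13.68 in CAKI1 (difference -7.09 ± 0.30, limma adjusted p = 1.63e-05). BTC, betacellulin, another ligand of that receptor, differed by -1.54 ± 0.19, whereas TGFA, a further such ligand and a HIF target, was higher, with 12.40 on the lower of the 2 A498 arrays against 10.94 to 12.14 elsewhere (difference 1.12 ± 0.17, limma adjusted p = 0.0243). INHBA, the activin subunit, was at 8.83 and 11.11 against 11.77 to 14.80 (difference -3.42 ± 0.31). In all 1 growth factor of 32 was higher (3.12%, against 1.71% of all genes) and 3 were lower (9.38%, against 2.34% of all genes). With the cell line as a random block 1 was lower. The calls of BTC and TGFA were lost when probe sets were averaged.

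Of 29 receptor tyrosine kinases none was higher and 2 were lower (6.90%, against 2.34% of all genes). None of these was called with the cell line as a random block. IGF1R, the receptor for insulin-like growth factors, was at 9.07 and 7.90 in A498 against 10.19 to 11.59 (difference -2.38 ± 0.17, limma adjusted p = 0.000484, or 0.0718 with probe sets averaged). ERBB3, a receptor that signals through its ERBB partners, was at 4.46 and 4.29 against 6.77 to 9.72 (difference -3.54 ± 0.35, limma adjusted p = 0.0109). Its 2 other probe sets gave -1.45 and 0.22. With an offset of 1 another probe set was the brightest, which had 0.26 and an adjusted p of 1.

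**Figure D4:**
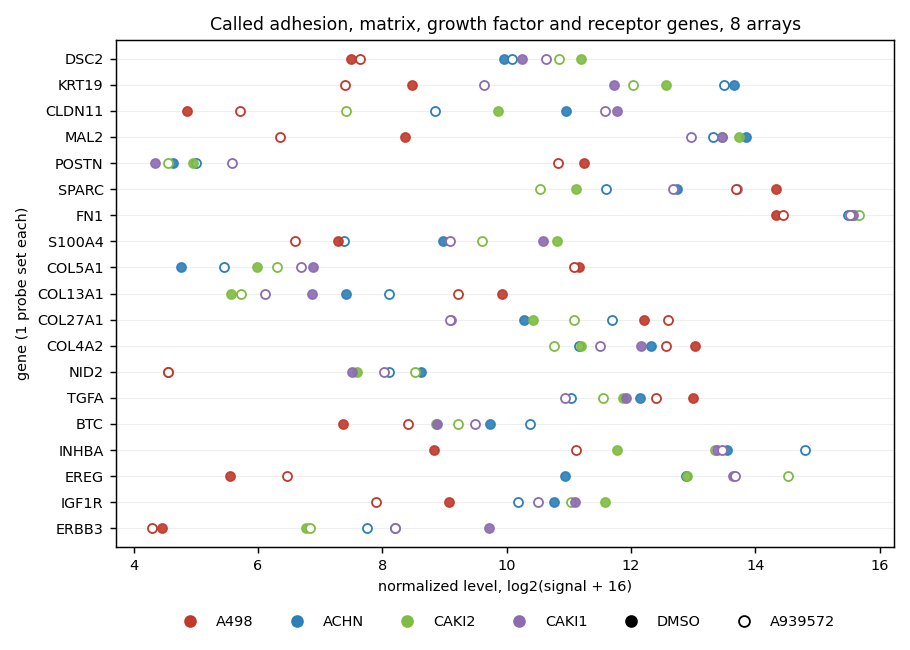
Levels (log2(signal + 16), normalized) on each of the 8 arrays for the called genes of 5 lists, from top to bottom epithelial adhesion, mesenchymal, matrix, growth factor and receptor genes. Filled points are DMSO and open points A939572, coloured by line. Both A498 points lie outside the others except in SPARC, where they overlap CAKI1.

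The VHL and HIF genes did not set A498 apart by RNA level. VHL was at 8.85 and 9.35 in A498 and between 8.31 and 9.25 in the other lines (difference 0.30 ± 0.19). HIF1A was at 14.49 and 14.78 against 14.04 to 14.64, and EPAS1, which encodes HIF2A, at 12.42 and 12.63 against 10.42 to 12.90. The limma adjusted p was 1 for each, and an RNA level says nothing of a mutation or of the protein. SCD, the drug target, was at 14.90 and 14.41 against 13.32 to 14.63 and was not called. Of 12 HIF regulators 1 was lower (8.33%, against 2.34% of all genes). It was ARNT, the partner subunit of the HIFs (difference -1.22 ± 0.19, limma adjusted p = 0.0407, lost with no further scaling).

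HIF targets went both ways, 3 higher (8.57%) and 2 lower (5.71%) of 35, against 1.71% and 2.34% of all genes. The median of -0.05 was 0.31 against ACHN, -0.81 against CAKI2 and 0.02 against CAKI1. In CAKI2 the same test called 8 of the 35 higher, where 2.96% of all genes were. For A498, none was called with the cell line as a random block. CP, ceruloplasmin, which oxidizes iron, was at 10.74 and 10.26 against 5.95 to 8.59 (difference 3.15 ± 0.28, limma adjusted p = 0.00506). LOXL2 and LOX, both crosslinkers of collagen, lay on opposite sides. LOXL2 was at 12.85 and 12.62 against 9.17 to 11.20 (difference 2.27 ± 0.18), but 0.35 as an average over its probe sets. LOX was at 9.67 and 11.08 against 12.22 to 14.37 (difference -2.79 ± 0.20, limma adjusted p = 0.000343). AK4, a mitochondrial adenylate kinase, was lower by 1.89 on the log2 scale. CA12, a carbonic anhydrase, was at 13.90 and 12.86 in A498 but at 14.60 and 14.31 in CAKI2, above it.

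The called genes of the metabolic lists were all lower, and the list medians lay on both sides of 0. The medians were 0.52 in drug and retinoid metabolism, where 22 of 29 differences were above 0, 0.24 in glutathione metabolism, 0.22 in fatty acid synthesis, -0.18 in glycolysis and -0.19 in lipid uptake. In glycolysis 2 of 23 were lower (8.70%, against 2.34% of all genes), ENO2, the neuronal enolase, at 5.99 and 5.39 against 8.61 to 11.08 (difference -4.05 ± 0.27, limma adjusted p = 0.000365), and TPI1, which differed by -0.83 ± 0.13. ALDH2, the mitochondrial enzyme that clears acetaldehyde, was at 6.70 and 7.99 against 9.68 to 12.73 (difference -3.64 ± 0.28, limma adjusted p = 0.00129). ELOVL4, an elongase of very long fatty acids, was at 4.55 and 4.35 against 7.69 to 9.17 (difference -3.87 ± 0.25), and LIPG, endothelial lipase, differed by -3.12 ± 0.31. In glutathione metabolism GSTO2 and MGST3, 2 of 40 (5.00%, against 2.34% of all genes), differed by -2.24 ± 0.24 and -1.15 ± 0.14. Averaging probe sets ended the calls of TPI1, GSTO2 and MGST3.

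No gene was called among 25 HOX genes, 18 integrins, 20 G1 regulators, 17 ABC transporters or 21 NOTCH pathway genes. Of 30 cell cycle genes none was called, with 24 differences above 0 and a median of 0.27. Of all genes 4.05% were called, and at that share lists this short can hold no call.

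The called genes were unevenly spread over the chromosomes. On chromosome 9, 41 of 560 tested genes were higher (7.32%, against 1.71% of all genes) and 4 were lower, the median difference was 0.51, and 82.0% of the differences were above 0. The median was 0.45 against ACHN, 0.39 against CAKI2 and 0.66 against CAKI1, and 0.53 in DMSO and 0.52 in A939572. The median of the 41 higher genes was 1.34, and COL5A1 had the largest difference, 5.11. In runs of 25 neighbouring tested genes on that chromosome the highest median was 0.99, from BNC2 to IFT74. That run takes in 9p21, where the list median given below was 2.40 against ACHN, 0.61 against CAKI2 and 0.45 against CAKI1. The part of the low ACHN values in the 0.99 was not tested. In no other chromosome did the median over all its tested genes reach 0.30 above 0. With probe sets averaged, 25 genes of chromosome 9 were higher, and 18 were when A498 was tested against the others as 1 group. The count was 7 without the variance trend, 1 with the cell line as a random block and 0 with 1 mean per line.

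Chromosomes 6, 12 and 18 had medians below 0, of -0.30, -0.30 and -0.34, and each had a median below 0 against every line. There 4.58%, 5.07% and 5.34% of the genes were lower, against 2.34% of all genes. Chromosome X had a like share, 5.11% (23 of 450), with a median of -0.01. On chromosome 12 that was 38 of 749 genes, including CD9, ERBB3, ENO2, TPI1, SYT1 and ALDH2, and 5 genes with the cell line as a random block. Copy number was not measured in these arrays.

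The 9p21 genes, around a region often lost in kidney cancer, had a median of 1.44 over 13 tested genes, and the distance was largest from ACHN. MTAP, a methionine salvage enzyme, was at 10.46 and 10.14 in A498, 4.38 and 4.54 in ACHN, 10.07 and 9.46 in CAKI2, and 10.03 and 10.03 in CAKI1. ACHN was near the dim end and A498 close to CAKI2 and CAKI1. The list median was 2.40 against ACHN, 0.61 against CAKI2 and 0.45 against CAKI1. PLAA, a ubiquitin-binding protein, was the called gene of the list (7.69%, against 1.71% of all genes). It was at 11.98 and 11.66 against 10.40 to 10.85 (difference 1.25 ± 0.17, limma adjusted p = 0.00998).

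**Figure D5:**
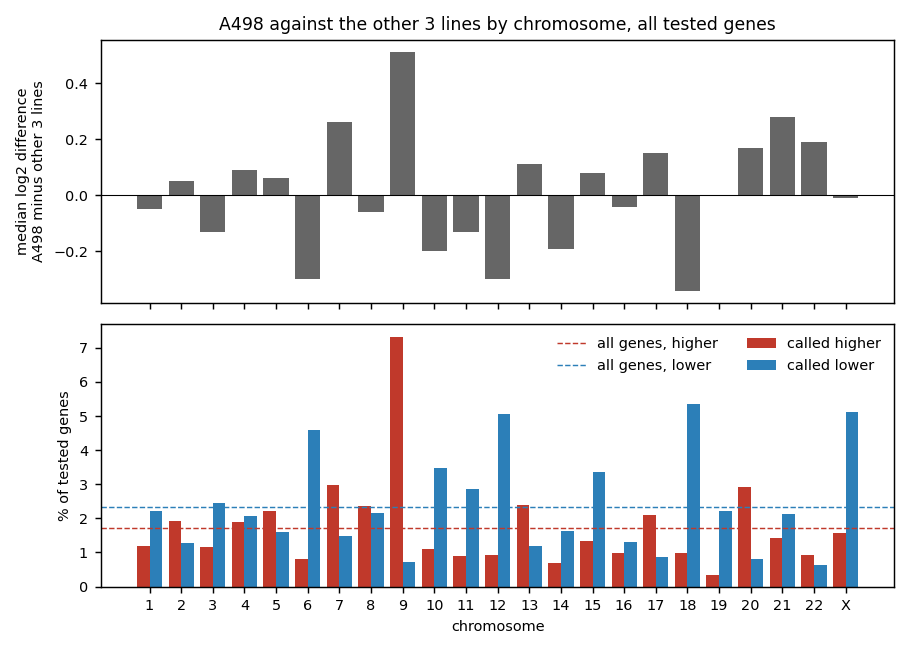
Top, median difference (log2) between A498 and the other 3 lines over the tested genes of each chromosome. Bottom, percentage of tested genes called higher (red) and lower (blue) on each chromosome, with the dashed lines at 1.71% and 2.34% for all genes. Chromosome 9 has the highest median, 0.51, and the highest share of higher genes, 7.32%.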

How the data were processed

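Each array was deposited as linear intensity signals, 1 value for each probe set. Per the labels, total RNA was turned into biotin-labelled cRNA. The sources used here do not give the program that made the signals. The authors' values share a mean after trimming 2% at each end of 500.067 to 500.073, so the arrays had been scaled. From 54675 probe sets 62 controls were left out. log2(signal + 16) was quantile normalized. Probe sets with 1 gene symbol (41091, with 1801 having several and 11721 unnamed) were used; 41037 were matched by Entrez ID to current GRCh38.p14 symbols. The brightest probe set stood for each of 19775 genes, and 13763 genes at or above 6.50 on at least 2 arrays were tested.

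limma 3.58.1 (R 4.3.3; lmFit, eBayes with trend) fitted the 4 lines and treatment to 8 arrays, with 3 residual degrees of freedom (9.82 with the prior). The number of arrays limits the precision. Data were simulated for this comparison (13763 genes, 200 changed). The test recovered 54%, 88%, 94% and 100% of genes placed 1, 2, 3 and 4 log2 units beyond the nearest line. Of 171 calls 3 (1.75%) were false. The simulation took its line levels, treatment gap and spread from this same fit. It therefore cannot show how calls fare under another error model, and 1.75% is not the false share of the 557 calls.

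The A498 arrays and the 44 gene lists (1037 genes, of which 754 were tested and 95 had no probe set in use) were chosen with earlier results of these data known. Genes named are the 15 largest differences each way among called genes outside the range of the other arrays in both treatments, up to 4 called members per list or 2 with the smallest p, and VHL, HIF1A, EPAS1 and SCD. The remaining interferon genes, NNT-AS1, FBN2, VIM, CDH2, EPCAM, PAX8, CA12, COL4A2, MTAP and the genes of the closing observations were chosen after their values were seen. Promoters and their motifs came from RefSeq (GRCh38.p14), with 11082 of 13763 tested genes matched. Alternatives covered scaling, offset, filter, probe sets, the variance trend, the error model and leaving out lines. Lists were described by counts and medians.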

Additional observations from a re-analysis of the deposited data

Results flagged for a closer look

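In 3 of 71 called genes, 1 of the 6 other arrays lay far from the rest, past the 95% critical value of Dixon's ratio for 6 samples. Chance alone puts about 1 in 20 groups past that value. XAF1 was at 4.53 in ACHN in A939572, below the other 5 arrays at 5.75 to 6.36. IL13RA2 was at 7.33 in CAKI1 in A939572, above the next array at 5.11. F3 was at 8.47 in CAKI2 in A939572, above the next at 6.84. All 3 arrays were from A939572, and in each gene A498 still lay outside all 6 arrays in both treatments.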

How the results depend on the processing

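The counts depend most on what is taken as the error. The 235 higher and 322 lower genes became 113 and 168 with the other lines as 1 group and treatment as a block (277 of the 557 shared). They became 12 and 41 with the cell line as a random block. No gene was called with 1 mean per line, or with the DMSO or the A939572 arrays alone. Those fits leave A498 as a single sample. Without the variance trend 75 genes were higher and 143 lower. With the mean of all probe sets 125 were higher and 203 lower (297 shared), and ACHN, CAKI2 and CAKI1 had 209, 536 and 165 calls. Leaving out ACHN, CAKI2 or CAKI1 left fewer lines to differ from: together with the single treatments, higher genes then ranged from 0 to 704 and lower genes from 0 to 817. The genes above all other arrays went from 1158 to between 1631 and 1993, and those below from 1310 to between 1862 and 2234. Genes differing between treatments were 0 or, without ACHN, 1 (FBN2, adjusted p = 0.0351). Calls kept within 1.5 times with other scaling, offset or filter, and the share of calls that were higher was 42.2%, 31.9% with median centring and 49.4% with an offset of 64. Of 71 called genes named by rule, 68 stayed called with median centring, 62 with an offset of 1, 60 without a filter, 53 with the mean of all probe sets, 43 with the other lines as 1 group, 38 without the variance trend, 25 with the cell line as a random block and 0 with 1 mean per line. ERBB3 changed sign with an offset of 1, to 0.26. Cell line and treatment were both terms of the main fit, and the test of a difference between treatments used the gap within each line. No finer pairing was possible because the labels carry no replicate numbers. For genes near the dim end in A498 the size of the difference depends on the offset.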

Other observations

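Other genes that respond to interferon or foreign nucleic acid, outside the interferon list and chosen after their values were seen, were higher in A498. CMPK2, an interferon-induced nucleotide kinase, was at 9.82 and 10.38 in A498 and between 4.68 and 8.44 elsewhere (difference 3.71 ± 0.31, limma adjusted p = 0.0250). SAMHD1, which destroys the nucleotides that viruses need, was at 12.26 and 11.74 against 8.70 to 10.66 (difference 2.15 ± 0.14, limma adjusted p = 0.000572). TLR3, a sensor of double-stranded RNA, was at 11.09 and 9.86 against 8.10 to 9.48 (difference 1.56 ± 0.19, limma adjusted p = 0.0109). ICAM1, a ligand of leukocyte integrins, was at 10.63 and 11.38 against 5.24 to 8.87 (limma adjusted p = 0.0199), and NCAM1, the neural cell adhesion molecule, at 9.77 and 10.35 against 5.00 to 6.88 (difference 3.88 ± 0.26, limma adjusted p = 0.000230, but 1.55 and 0.191 with probe sets averaged). TNC, the matrix protein tenascin C, was at 12.31 and 12.80 against 5.85 to 10.29 (difference 4.47 ± 0.40, limma adjusted p = 0.00938). On the lower side, the mitochondrial enzymes OXCT1, which uses ketone bodies, and ACAA2, of fatty acid oxidation, differed by -4.35 ± 0.21 and -3.04 ± 0.18. ACAA2 had -1.16 and an adjusted p of 0.943 when probe sets shared between transcripts were dropped, and OXCT1 stayed called under each alternative of the same test.

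Zinc finger genes of chromosome 19, a family drawn up after the values were seen and so given without a test, held 18 lower genes of 183 tested and 1 higher. The lower ones were 9.84%, against 2.34% of all genes. The 722 other genes of that chromosome held 2 lower and 2 higher. With CAKI2 left out, 17 of the family were lower and 8 higher, where 817 and 704 of all genes were. The family median then went from -0.36 to -0.15. Without ACHN 30 were lower and 2 higher, and without CAKI1 21 and 1. Many of the zinc finger genes encode repressors that bind repeated DNA. ZNF700 was at 4.73 and 4.13 in A498 and between 8.78 and 9.90 in the other lines (difference -4.75 ± 0.25), and ZNF614 at 4.11 and 5.99 against 8.74 to 9.79 (difference -4.17 ± 0.28). In the run of 25 neighbouring genes from ZNF649 to ZNF665, which had the lowest median of all runs at -1.25, 5 genes were called lower, among them ZNF614, ZNF615, ZNF350 and ZNF83, and 12 of the 25 differences were below 0 against each line. With the mean of all probe sets 10 of the family were lower, with the cell line as a random block 3 were, and with 1 mean per line none was. Members share sequence, and probe sets may take up each other's RNA.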
